A study of Ovis aries with 2 samples.

Results

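Transcript levels in sheep subcutaneous fat were examined at the 385 matched loci that read exactly 0 FPKM in 1 of the libraries and at least 1 FPKM in the other. FPKM is the number of sequenced fragments assigned to a locus, divided by the length of its transcript and scaled to the size of the library. A locus of the thin-tail table and a locus of the fat-tail table formed a matched pair when each was the other's best partner by position and the shared stretch made up at least 0.8 of the longer one. This gave 28177 pairs. At least 1 FPKM was listed in at least 1 library for 13117 of them, which are called the compared pairs below. Of these, 244 were at 0 in the fat-tail library, 141 were at 0 in the thin-tail library and 12732 were above 0 in both.

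One library came from a thin-tailed and one from a fat-tailed animal, or pool of animals, of Iranian native sheep aged 7 months. The lambs had been weaned at 90 days and then kept in single pens on the same unrestricted feed for 120 days, with no treatment. The tail type was read from the sample titles, where the word Fat could also stand for the tissue, and this reading sets every direction given here. The series text speaks of duplicates, but 1 library of each tail type was analysed here, so there is no replicate check, no test was made, and every value describes these libraries. The tables give no gene names, so adipocyte markers and markers of other cell types could not be looked up, and loci are given by chromosome, start and end, counted from 1. The sources used here do not name the genome build.

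Fat-tailed breeds store much of their fat around the tail, and fat-tail and thin-tail breeds are compared to learn how adipose tissue is partitioned over the body. Mammalian genes often lie over one another, as a short gene inside an intron of a longer one or as neighbours whose ends meet. When short fragments are assembled into transcripts, a stretch covered by several models has its fragments divided among them. A value of 0 for one model is therefore a statement about that model, and the other models at the same place are needed to read it.

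The level of the loci in the library where they were above 0 was mostly low, with a few very high values. At the 244 loci at 0 in the fat-tail library, the thin-tail value ranged from 1.00 to 8072 FPKM with a median of 2.66. At the 141 loci at 0 in the thin-tail library, the fat-tail value ranged from 1.01 to 1088760 FPKM with a median of 2.49. Values of 1 to under 2 FPKM made up 89 of the former and 57 of the latter, and 10 FPKM or more were read at 40 and 26. These levels chose the loci and are given as a description. In whole tissue, fewer cells of a type and less RNA per cell cannot be told apart in such values. On the scale of log2((fat-tail FPKM + 1)/(thin-tail FPKM + 1)), the medians were -1.87 and 1.80, against -0.12 over all compared pairs. The signs follow from the selection.

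Every such locus differs 2-fold or more on that scale, again by construction. Of the compared pairs, 14.7% were at least 2-fold lower and 8.30% at least 2-fold higher in the fat-tail library. The 244 loci at 0 in the fat-tail library supplied 12.6% of the 1931 lower pairs. The 141 at 0 in the thin-tail library supplied 12.9% of the 1089 higher pairs. Near the threshold, the lowest included values were 1.00 FPKM on chromosome 21 (40081840 to 40084698) and 1.01 on chromosome X (15767853 to 15856339) in the thin-tail library. The highest excluded ones were 0.996 on chromosome 1 (106717504 to 106718073) and 0.993 on chromosome 11 (49714298 to 49717531). In the fat-tail library the lowest included values were 1.01 FPKM on chromosome 18 (66480650 to 66483067) and 1.02 on an unplaced scaffold, and the highest excluded ones were 0.998 on chromosome 13 (22288367 to 22288681) and 0.990 on chromosome 14 (62706963 to 62707295).

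The deposited interval of each value separates well-covered loci from those resting on very few fragments. If an interval reflects counting alone, it spans 2 square roots of the fragment number on either side, and the number can be worked back. These implied fragments numbered 16.4 at the median locus at 0 in the fat-tail library and 11.4 at the median locus at 0 in the thin-tail one. Of the 170 loci with up to 10 implied fragments, 138 came within 0.05 of a whole number. The fat-tail depth estimated from such whole fragment numbers was 0.975 times the thin-tail depth (quartiles 0.952 and 1.00, 747 Ensembl loci with identical ends), if no scaling was applied between the libraries. The total depth of either library is unknown.

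For 119 of the 385 loci the interval of the value above 0 reached down to 0. They comprised 67 of the 244 loci at 0 in the fat-tail library and 52 of the 141 at 0 in the thin-tail library. Among the compared pairs above 0 in both libraries, 4.93% had an interval that reached 0 in either. By the way the number is worked back, an interval that reaches 0 gives at most 4 implied fragments. The number rounded to 1 for 48 of the 385 loci. Its lowest value was 0.336. A value below 1 is no whole count, so not every interval reflects counting alone. At the other end, 68 loci had at least 100 implied fragments, 47 of them at 0 in the fat-tail and 21 at 0 in the thin-tail library. The other loci, with intervals above 0, fell into 145 whose row at 0 overlapped a locus above 0 of the same table and 121 whose row did not.

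**Figure D1:**
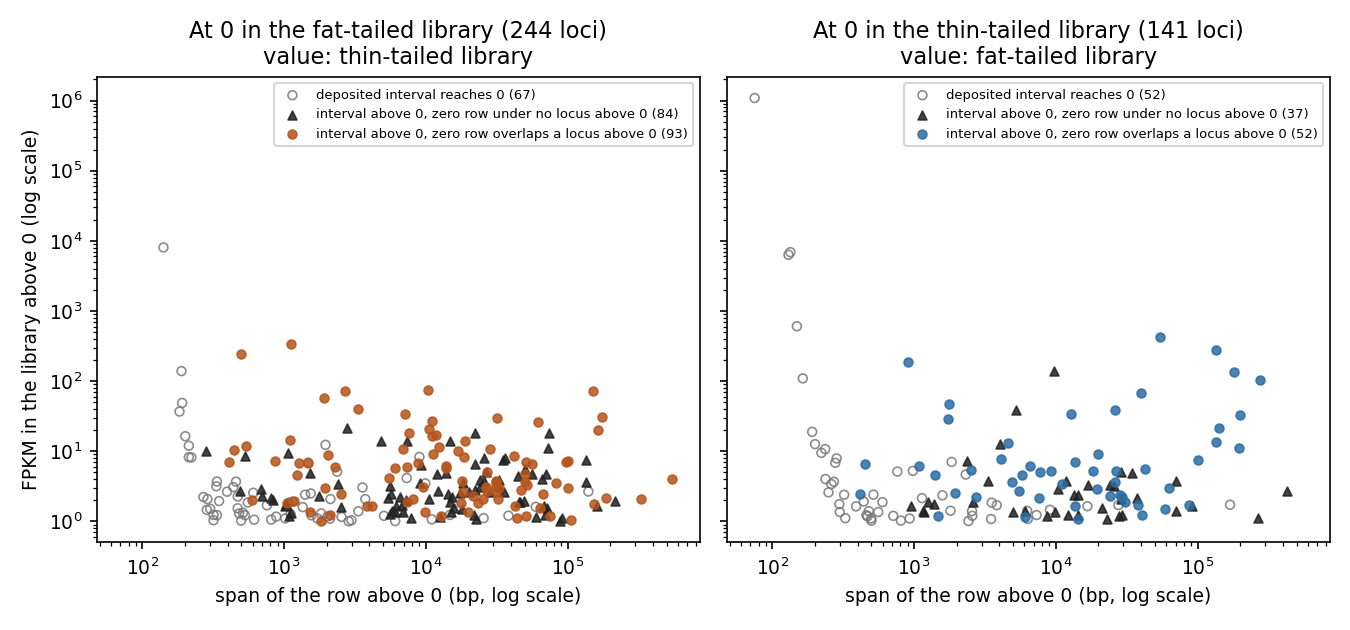
FPKM in the library above 0 against the span of the locus in that library, both on log scales, with one panel per direction. Open circles mark values whose interval reaches 0 (67 and 52 loci) and include all loci shorter than 200 bp; filled circles (93 and 52) and triangles (84 and 37) mark intervals above 0, with and without a locus above 0 over the row at 0.

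The highest FPKM in each direction stood on very few fragments. An Ensembl locus of 75 bp on chromosome 6 (89459978 to 89460052) was at 1088760 FPKM in the fat-tail library, with an interval from 0 to 3266270, and 0 in the thin-tail library. It rested on 1 implied fragment. A 141 bp Ensembl locus on chromosome 5 (48704500 to 48704640) was at 8072 FPKM (0 to 19503) in the thin-tail and 0 in the fat-tail library, on 2 implied fragments (1.99). For a locus about as short as a sequenced fragment, the usable length that enters FPKM as the divisor becomes very small. Of the 10 loci under 200 bp in the thin-tail table, 4 were at 0 in the fat-tail and 6 at 0 in the thin-tail library, and the interval of all 10 reached 0.

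Other short loci lay inside abundant longer ones. On chromosome 8 an Ensembl locus of 130 bp (58025363 to 58025492) read 6327 FPKM (0 to 18980) in the fat-tail library and 0 in the thin-tail library. It lay within an assembled locus that read 9353 FPKM in the thin-tail and 10011 in the fat-tail library, a difference of 0.10 on the log2 scale. On chromosome 21 a 134 bp locus (49325253 to 49325386) read 6886 FPKM (0 to 20660) in the fat-tail and 0 in the thin-tail library. The locus around it read 2284 FPKM in the thin-tail and 4709 in the fat-tail library. Both short loci had 1 implied fragment, while the loci holding them were at 2284 FPKM or more in both libraries.

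A 189 bp Ensembl locus on chromosome 13 (64391117 to 64391305) was at 139 FPKM (0 to 278) in the thin-tail library on 4 implied fragments (3.996) and 0 in the fat-tail library. The remaining short locus named by level was of another kind. On chromosome 16 a 494 bp assembled locus (70512339 to 70512832) read 241 FPKM (219 to 262) in the thin-tail library on 500.1 implied fragments and 0 in the fat-tail library. It lay at the end of a locus that read 289 FPKM in the thin-tail library (70491219 to 70512615) and 109 in the fat-tail library (70491214 to 70512772). In the fat-tail table that longer locus covered the whole of the short one, and the thin-tail one covered 56.1% of it.

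The kind of identifier differed between these loci and the pairs above 0 in both libraries. A locus carries either an Ensembl sheep gene identifier or a name given by the assembly of that library. Over all rows, 78.7% of Ensembl rows in the thin-tail and 77.6% in the fat-tail table were at 0. For assembled rows the shares were 4.25% and 4.33%, so zeros in general went with the Ensembl identifier. Both rows were assembled in 42.3% of the 385 loci against 86.8% of the pairs above 0 in both libraries. Both carried an Ensembl identifier in 30.6% against 5.63%, and the identifiers were mixed in 27.0% against 7.56%. Seen the other way, 118 of 835 compared pairs with Ensembl identifiers in both tables (14.1%) were at 0 in 1 library, as were 104 of 1066 mixed pairs (9.76%) and 163 of 11216 assembled pairs (1.45%). Over all compared pairs the share was 2.94%.

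**Figure D2:**
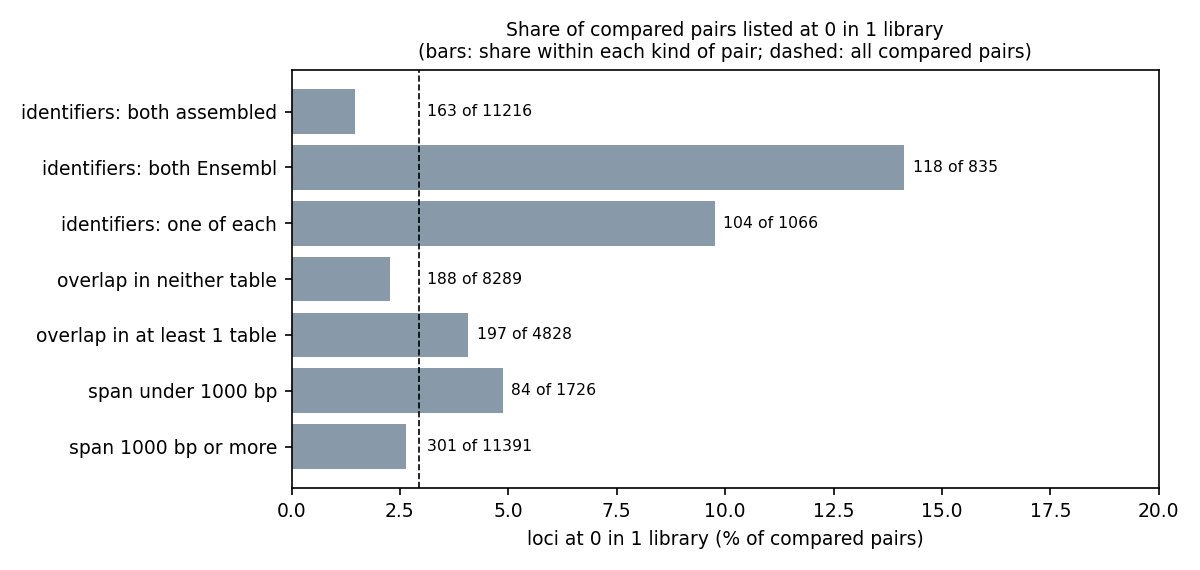
Percentage of compared pairs listed at 0 in 1 library, for pairs grouped by identifier, overlap and span (thin-tail row); the dashed line is the 2.94% of all 13117 pairs. The share was 14.1% where both identifiers were Ensembl and 1.45% where both were assembled.

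The 118 loci with Ensembl identifiers in both tables were short and thinly covered. Their median span was 788 bp, their median level 2.25 FPKM and their median number of implied fragments 3. The interval reached 0 for 84 of them. The 163 loci assembled in both tables had a median span of 16806 bp, a median of 3.63 FPKM and 42.0 implied fragments, and the interval reached 0 for 13. Rows at 0 that carried an assembled name numbered 107 of the 244 at 0 in the fat-tail and 76 of the 141 at 0 in the thin-tail library.

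Among the mixed pairs, the row at 0 was usually the Ensembl one, and over all rows too Ensembl rows were the more often at 0. It was so in 63 of the 76 mixed pairs at 0 in the fat-tail and in 21 of the 28 at 0 in the thin-tail library. Mixed pairs above 0 in both libraries showed the same order. The Ensembl row was the lower one in 590 of 667 pairs where the fat-tail table carried the identifier and in 198 of 295 where the thin-tail table did. The median log2 ratios of assembled over Ensembl FPKM in these sets were 1.44 and 0.48. The part of the identifier in the zeros was not tested.

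Rows at 0 lay over or under another locus more often than the rows of pairs above 0 in both libraries did, and so, less markedly, did their matched rows above 0. In the fat-tail table, 99 of the 244 rows at 0 (40.6%) overlapped a locus above 0 by at least 1 bp. Among rows of the thin-tail table it was 64 of 141 (45.4%). The corresponding shares for the pairs above 0 in both libraries were 23.0% in the fat-tail and 23.3% in the thin-tail table. The matched rows above 0 overlapped another locus above 0 in 81 of 244 (33.2%) and 54 of 141 (38.3%). Among loci assembled in both tables the share was 114 of 163 (69.9%), against 24.2% and 24.5% of the assembled pairs above 0 in both. Among loci with Ensembl identifiers in both it was 22 of 118 (18.6%), against 17.2% and 17.0%. The tables give no strand, so loci on opposite strands cannot be told from loci on the same one.

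The overlap was often small, and the highest overlapping locus often exceeded the matched row. Of the 99 overlapped rows at 0 in the fat-tail table, 49 shared under 10% of their span with any single locus above 0 and 31 shared 50% or more. Of the 64 rows at 0 in the thin-tail one, the counts were 25 and 28. The highest FPKM over the row exceeded the value of the matched row in the other library for 83 of the 99 and 49 of the 64. Its median was 17.4 FPKM against 3.78 for the matched row at 0 in the fat-tail library, and 21.3 against 5.22 for those at 0 in the thin-tail library. This highest FPKM is the largest of all loci over a row, set against a single value. No such count is given here for pairs above 0 in both libraries. The overlapping loci could themselves be compared in 104 and 69 cases. On the log2 scale they stood at a median of 0.09 and 0.17 towards the library with the row at 0. They were 2-fold higher there in 16 and 12 cases (15.4% and 17.4%) and 2-fold lower in 9 and 7 (8.65% and 10.1%). Over all compared pairs the fat-tail value was 2-fold higher in 8.30% and 2-fold lower in 14.7%, with a median of -0.12. These shares include the 385 loci at 0 in 1 library, which were left out of the overlapping loci compared here.

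In several places the tables drew the models on and around the matched locus differently. On chromosome 24 a 1126 bp locus (26139961 to 26141086) read 339 FPKM (315 to 363) in the thin-tail library on 787 implied fragments and 0 in the fat-tail library. In the fat-tail table a locus reading 2001 FPKM (26132240 to 26140497) ran into it. The thin-tail table listed that neighbourhood in separate pieces, one at 1946 FPKM (26132236 to 26135975) and one at 32.3 FPKM (26136962 to 26139737), neither reaching the matched locus. The fat-tail locus at 2001 FPKM also spanned the piece at 32.3 FPKM and part of the matched locus. The abundant loci of the tables thus differ in extent, and no fat-tail value is listed for the thin-tail piece alone.

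On chromosome 11 a 1909 bp locus (13017336 to 13019244) read 57.8 FPKM (52.9 to 62.7) in the thin-tail and 0 in the fat-tail library. Models at 67.3 and 580.1 FPKM lay over it in the thin-tail table, and models at 26.2 and 123 FPKM in the fat-tail table. With the highest model covering 50% or more of the row taken in each table, the values were 67.3 and 123 FPKM, higher in the library where the matched row was at 0. At another place on chromosome 11 (40250021 to 40260382) the thin-tail row was at 74.3 FPKM (65.4 to 83.1) and the fat-tail row, an Ensembl one, 0. A short locus at its end read 405 FPKM in the thin-tail and 167 in the fat-tail library. Just beyond the matched locus, a further short locus went the other way. It read 154 FPKM in the thin-tail (40260885 to 40261533) and 494 in the fat-tail library (40260885 to 40261524).

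On chromosome 20 a 3340 bp locus (27675151 to 27678490) read 39.5 FPKM (34.9 to 44.1) in the thin-tail library and 0 in the fat-tail library. A fat-tail locus of 91478 bp at 10779 FPKM (10203 to 11355) covered all of it. The thin-tail table had 3 loci of 169921 to 170021 bp over it, and the highest of them read 58.4 FPKM. The order of the libraries there thus depends on which model is read.

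On chromosome 24 a matched locus of 152270 bp (1117805 to 1270074) read 72.5 FPKM (62.9 to 82.1) in the thin-tail and 0 in the fat-tail library, where its row was an Ensembl one. It enclosed a second one (1186017 to 1197157) at 26.6 FPKM (20.4 to 32.8) in the thin-tail and 0 in the fat-tail library. An assembled locus within the first that covered the second (1169529 to 1222919) read 8.003 FPKM in the thin-tail and 42.0 in the fat-tail library, in the opposite direction to both. A locus over the start of the first read 44.9 FPKM in the thin-tail (1041143 to 1140799) and 64.8 in the fat-tail library (1041139 to 1140799). Over the end of the second, short loci read 3.38 FPKM in the thin-tail (1195966 to 1197260) and 23.1 in the fat-tail library (1196298 to 1197163).

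At other loci at 0 in the fat-tail library no model covering 50% or more of the row reached the thin-tail value, though shorter models lay over some. The locus at 32714525 to 32717199 on chromosome 7 was at 72.3 FPKM (54.5 to 90.0) in the thin-tail library, inside a long locus that read 7.34 FPKM in the thin-tail and 7.39 in the fat-tail library. On chromosome 4 a 173886 bp locus (107106290 to 107280175) read 30.4 FPKM (27.3 to 33.4) against 0, within a longer locus at 4.88 FPKM in the thin-tail and 3.40 in the fat-tail library. The fat-tail table also listed a 1031 bp locus inside it at 95.3 FPKM, above the thin-tail value of the row, so the order turned when that model was read. On chromosome 22 (17873804 to 17880955) the value was 34.3 FPKM (28.3 to 40.4) against 0, and a fat-tail locus at 9.53 FPKM overlapped its end by 461 bp.

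The loci at 0 in the thin-tail library followed similar patterns. On chromosome 5 a 40209 bp locus (59215580 to 59255788) read 68.2 FPKM (64.6 to 71.9) in the fat-tail library on 1407 implied fragments and 0 in the thin-tail library. The thin-tail neighbour (59255317 to 59263326) read 436 FPKM (418 to 455) and began 140 bp before the thin-tail row ended. The fat-tail neighbour (59255869 to 59263326) read 161 FPKM (150.2 to 172.0) and began beyond the matched locus. One neighbour was thus higher in the library where the matched row was at 0.

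On chromosome 10 a 181816 bp locus (29275771 to 29457586) had identical ends in both tables and read 136 FPKM (127 to 144) in the fat-tail and 0 in the thin-tail library. Its neighbour (29454677 to 29502617), also with identical ends, read 2135 FPKM (2026 to 2243) in the thin-tail and 151 (144 to 158) in the fat-tail library. The loci share 2910 bp. In the thin-tail library the first was thus lower and the second higher than in the fat-tail one.

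**Figure D3:**
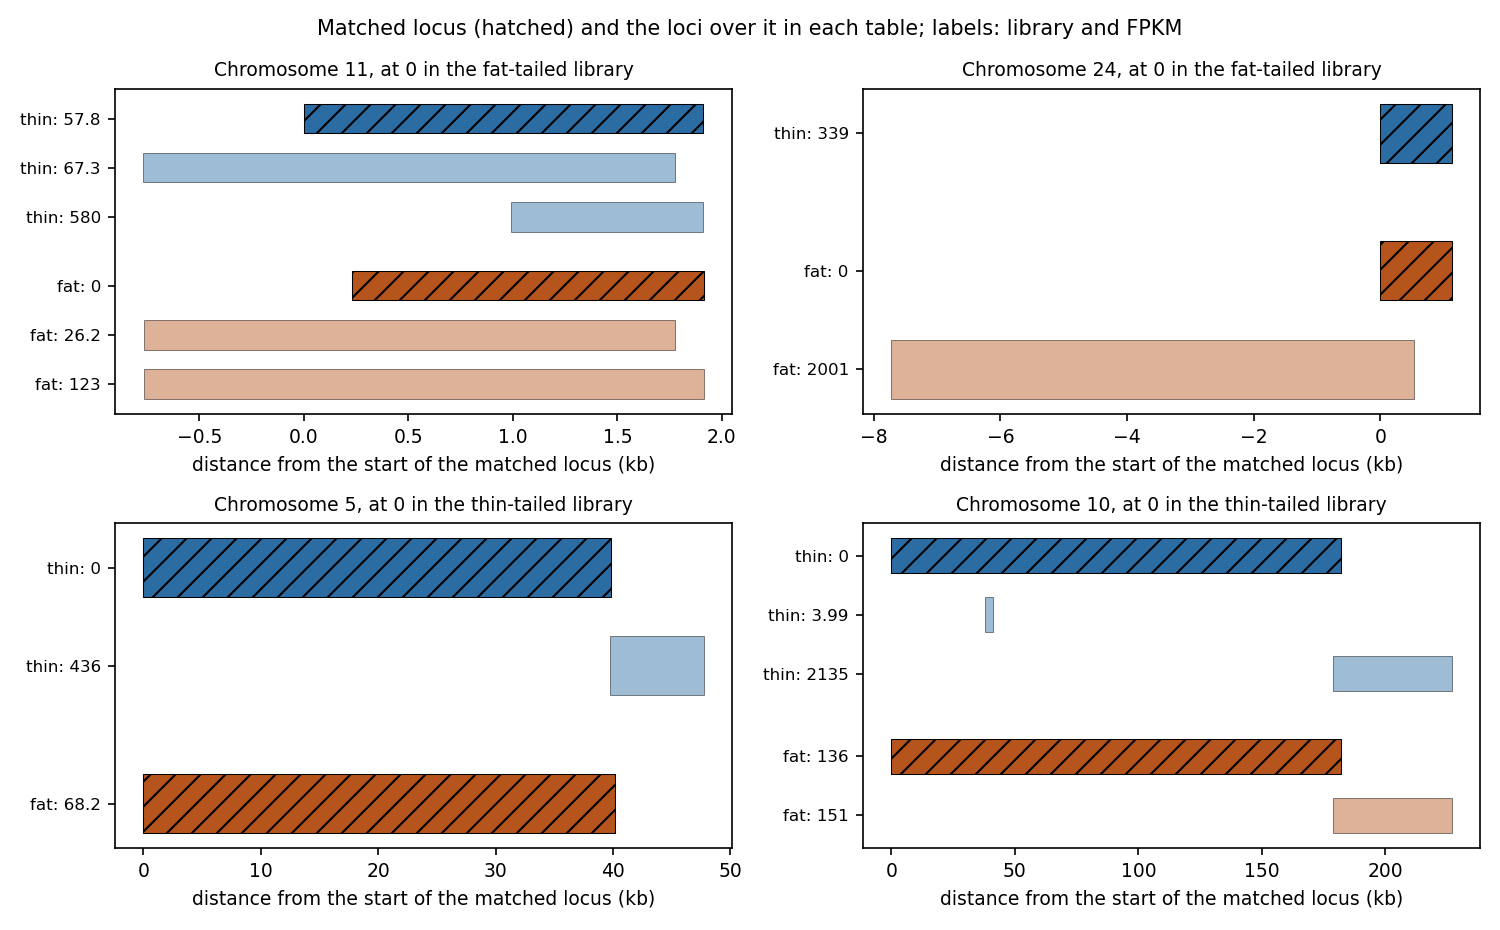
Rows of both tables at 4 matched loci, drawn by distance in kb from the start of the matched locus in the library above 0; hatched bars are the matched rows, plain bars the loci over them, blue thin-tail and orange fat-tail, with the FPKM on the left. In each panel the library whose hatched row reads 0 lists an overlapping locus at 123 FPKM or more.

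A locus on chromosome X (117751995 to 118028018) had identical ends in both tables and read 105 FPKM (100.6 to 110.0) in the fat-tail library, on 1993 implied fragments, and 0 in the thin-tail library. In the thin-tail table a 2556 bp assembled locus inside it (117844903 to 117847458) read 233 FPKM (222 to 245), and no such inner locus was listed in the fat-tail table. On chromosome 23 a fat-tail locus of 12899 bp (42525285 to 42538183) read 34.2 FPKM (31.6 to 36.8). In the thin-tail table the same stretch was listed as a row at 0 (42525801 to 42536308) and one at 45.5 FPKM (42535993 to 42538181). At 41921598 to 41923352 on chromosome 21 the value was 47.7 FPKM (40.6 to 54.8) in the fat-tail library, and the thin-tail row at 0 lay within a 10180 bp locus at 422 FPKM (397 to 447).

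At 59650183 to 59676212 on chromosome 19 the value was 38.6 FPKM (34.2 to 43.0) in the fat-tail and 0 in the thin-tail library. A thin-tail locus at 131 FPKM (59674105 to 59728056) ran on from its end. Over that further stretch the fat-tail table listed separate loci at 9.48 FPKM (59676308 to 59694771) and 395 FPKM (59698219 to 59726176). On chromosome 24 a 135552 bp locus (38600242 to 38735793) read 274 FPKM (260.3 to 286.9) in the fat-tail and 0 in the thin-tail library, on 1693 implied fragments. A short locus inside it, of 2858 bp in the thin-tail and 2764 bp in the fat-tail table, read 954 FPKM in the thin-tail and 387 in the fat-tail library. At 49449861 to 49504201 on chromosome 21 the value was 425 FPKM (273 to 577) against 0, the highest among overlapped loci of at least 1000 bp at 0 in the thin-tail library, on 31.3 implied fragments. A 26374 bp thin-tail locus inside it read 9.24 FPKM, and its fat-tail counterpart of 26611 bp read 33.2 FPKM. A 432 bp thin-tail locus inside it (49464095 to 49464526) read 47.7 FPKM, more than any inner locus of the fat-tail table.

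Taking at each place the highest FPKM of any locus that covers 50% or more of the row changed the outcome at a minority of the loci. Over all compared pairs, 14.8% were 2-fold lower and 8.30% 2-fold higher in the fat-tail library on this measure. Of the 244 loci at 0 in the fat-tail library, 225 were still 2-fold lower there, 15 came within 2-fold and 4 were 2-fold higher. Of the 141 at 0 in the thin-tail library, 122 were still 2-fold higher in the fat-tail library, 14 came within 2-fold and 5 turned 2-fold lower. At this cover only the 31 and 28 loci with such a covering locus above 0 in the table of the zero could change. Among them 12 and 9 stayed 2-fold apart in the direction of the row. With every locus overlapping the row by 1 bp or more counted, 157 of the 244 and 88 of the 141 stayed 2-fold apart in that direction.

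**Figure D4:**
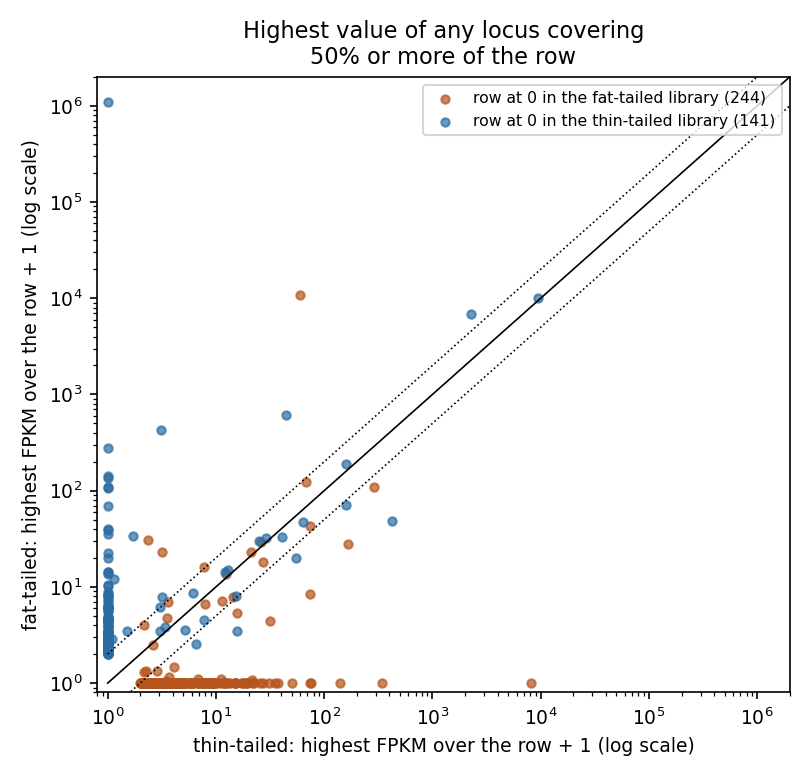
Highest FPKM of any locus covering 50% or more of the row, plus 1, in the thin-tail (x axis) and fat-tail (y axis) library, log scales; the solid line is equality and the dotted lines 2-fold. Points along the axes have no covering locus above 0 in 1 library; 59 of the 385 loci leave the axes, and 29 of those lie within 2-fold.

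At 188 of the 385 loci, 125 at 0 in the fat-tail and 63 at 0 in the thin-tail library, neither row overlapped any other locus of its own table. These are called isolated. The share was 48.8%, against 63.6% of the pairs above 0 in both libraries. The rows of a pair can differ in extent, so the stretch given by the row above 0 was also searched, as a step chosen after the values were seen, for further loci above 0 in the table of the zero. Such a locus was found at 27 of the 125 and 3 of the 63, against 6.36% and 1.74% of the isolated pairs above 0 in both libraries with the fat-tail and the thin-tail table searched. Among those of at least 1000 bp at 0 in the fat-tail library, the highest was an Ensembl locus with identical ends, ENSOARG00000004312 on chromosome 19 (48403558 to 48406316), at 21.7 FPKM (16.5 to 26.9) in the thin-tail library on 69.6 implied fragments. Next came a locus of 73895 bp on chromosome 1 (40599811 to 40673705) at 18.4 FPKM (16.8 to 19.97), on 531 implied fragments. Its rows carried assembled names in both tables. The fat-tail row at 0 ended at 40668829, and beyond it, within the thin-tail extent, the fat-tail table listed a short locus (40671453 to 40673755) at 23.6 FPKM (21.4 to 25.7).

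Loci on chromosome 2 had an assembled row in the thin-tail table and an Ensembl row at 0 in the fat-tail table. The locus from 41704775 to 41719528 read 14.0 FPKM (12.8 to 15.3) on 513 implied fragments. Its fat-tail row at 0 ended at 41716665, and a separate fat-tail locus over the remainder (41716977 to 41719550) read 13.4 FPKM (11.9 to 14.96). ENSOARG00000007721 (23987477 to 23992086, extended to 23992329 by the thin-tail assembly) read 14.2 FPKM (3.88 to 24.5) on 7.58. Similar pairs with an Ensembl row at 0 read 11.1 FPKM (8.96 to 13.2) at chromosome 2, 183725544 to 183798694, and 7.999 FPKM (6.64 to 9.36) at chromosome 17, 67965597 to 68002041, in the thin-tail library. Over the end of the chromosome 17 locus the fat-tail table listed a locus (68000254 to 68002040) at 8.27 FPKM (6.80 to 9.74). The end of a matched thin-tail row could thus be listed at a similar FPKM as a locus of its own in the fat-tail table. A shorter one on chromosome 9 (14502313 to 14503374) was at 9.41 FPKM (4.47 to 14.3). An Ensembl locus on chromosome 7 (32597495 to 32599455) was at 12.4 FPKM but with an interval from 0 to 37.1, on 1 implied fragment.

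In the other direction the highest isolated locus lay on chromosome 3 (10983254 to 10988488), assembled in both tables, at 38.2 FPKM (30.8 to 45.7) in the fat-tail and 0 in the thin-tail library, on 105 implied fragments. Assembled pairs on chromosome 21 read 12.6 FPKM (6.95 to 18.2) at 25785258 to 25789326 and 3.73 FPKM (2.81 to 4.66) at 25087067 to 25098873. A thin-tail locus over the end of the latter (25097472 to 25099712) read 3.82 FPKM (2.96 to 4.69). One on chromosome 19 (52197630 to 52200003) was at 7.16 FPKM (4.68 to 9.64). ENSOARG00000012206 on chromosome 14 (12842741 to 12871377) was at 5.14 FPKM (3.82 to 6.47) as an assembled fat-tail row, against 0 for the Ensembl row. Here the identifiers differ between the tables, as they do for most isolated loci named in the other direction. A mixed pair of the same kind on chromosome 22 (19923049 to 19993363) was at 3.72 FPKM (1.89 to 5.54). ENSOARG00000012411 on chromosome 20 (9880500 to 9882340) was at 7.05 FPKM (0 to 21.2) on 1 implied fragment, and an Ensembl locus on chromosome 14 (24852483 to 24854796) was at 4.66 FPKM (0 to 9.32) on 4 (3.996).

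Well-covered loci with no locus above 0 over the row at 0 differed in number between the directions. With at least 100 implied fragments, 16 were at 0 in the fat-tail and 3 at 0 in the thin-tail library. They come from 84 and 37 loci with intervals above 0. Over all compared pairs, 1931 were 2-fold lower and 1089 2-fold higher in the fat-tail library. How many of those had at least 100 implied fragments is not given here, so 16 and 3 have no like share beside them. Of the 16, 12 had an Ensembl row at 0 in the fat-tail table and an assembled row in the thin-tail table. None of the 3 did. Mixed pairs with the Ensembl row in the fat-tail table were also the commoner kind among pairs above 0 in both libraries, at 667 against 295. The part of the identifier in the uneven counts was not tested.

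Most of these well-covered loci had a further locus above 0 in the table of the zero over the stretch of the row above 0. This was so for 13 of the 16 and 2 of the 3, and for 34 of the 84 and 6 of the 37 loci with intervals above 0 and no locus above 0 over the row. Among pairs above 0 in both libraries the shares were 28.6% with the fat-tail and 24.6% with the thin-tail table searched, rows with an overlap in their own table included. At the 34 loci the highest such fat-tail locus had a median span of 1201.5 bp and a median of 5.31 FPKM, against 2.77 for the matched thin-tail row, and it exceeded that row at 29. On chromosome 12 the thin-tail row (521768 to 529101) read 13.9 FPKM, and a fat-tail locus over its start (521614 to 522842) read 123 FPKM. On chromosome 17 the thin-tail row (40532415 to 40602835) read 4.77 FPKM, and fat-tail loci over its end read 13.9 FPKM (40600447 to 40601676) and 12.5 FPKM (40601753 to 40602839). On chromosome 2 the thin-tail row from 238480388 to 238515252 read 7.49 FPKM and a fat-tail locus over its start 16.7 FPKM. At these places the fat-tail library was thus above 0 at an end of the matched stretch. It was not so on chromosome 14, where the thin-tail row (59267298 to 59289535) read 18.3 FPKM (15.0 to 21.6) on 126 implied fragments. Every fat-tail locus listed over that stretch read 0. Against the shares of the pairs above 0 in both libraries, 34 of 84 was higher and 6 of 37 lower. Those pairs include rows with an overlap in their own table, so the sets are not alike. No further locus above 0 was listed at 50 loci at 0 in the fat-tail library, with a median of 2.24 and a highest value of 21.7 FPKM, or at 31 at 0 in the thin-tail library, with a median of 1.90 and a highest value of 38.2 FPKM. Of these, 3 and 1 had at least 100 implied fragments.

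The 3 at 0 in the thin-tail library, singled out after their values were seen, included the chromosome 3 locus above and one on chromosome 5 (40905657 to 40915403) at 141 FPKM (128 to 154). There the thin-tail row at 0 ended at 40914683, and the next thin-tail locus began at 40914703, within the fat-tail extent, and read 63.7 FPKM. The corresponding fat-tail locus (40914616 to 40926664) overlapped the matched one and read 12.5 FPKM. On chromosome 6 (104302285 to 104336497) the fat-tail value was 4.95 FPKM (3.99 to 5.92), and the adjoining locus read 18.5 FPKM in the thin-tail and 31.1 in the fat-tail library. Adjoining loci thus met at different positions in the tables, as at the loci at 0 in the fat-tail library above.

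The nearest compared loci above 0 on either side were read as a regional comparison for the 84 and 37 loci with an interval above 0 and no locus above 0 over the row. Of 163 flanking loci around those at 0 in the fat-tail library, 28 were 2-fold lower and 7 were 2-fold higher there, with a median of 0.22 on the log2 scale towards the thin-tail library. Of 73 flanking loci around those at 0 in the thin-tail library, 4 were 2-fold lower and 8 were 2-fold higher there, with a median of 0.16 towards the fat-tail library. The shares over all compared pairs were 14.7% lower and 8.30% higher in the fat-tail library. Those shares include the 385 loci at 0 in 1 library, all 2-fold apart by construction. The flanking loci were all above 0 in both libraries, so the sets are not alike. Most neighbours in both sets were within 2-fold.

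The loci were found on all 26 autosomes and X, at 0.510% to 4.79% of the compared pairs per chromosome. Chromosome 1 held the most, 34 of 1177, and chromosome 20 the largest share, 18 of 376. Chromosome 23 held 1 of 196. A further 16 lay on unplaced scaffolds. None of the 13 compared mitochondrial pairs was at 0 in 1 library. Members of the group rarely overlapped each other, with 3 such pairs in the thin-tail table, 1 of them at 0 in different libraries. For 3 rows at 0 in the fat-tail and 4 in the thin-tail table, another row of the same table carried the same identifier at a separate position, and in all 7 cases such a row was above 0.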

How the data were processed

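Poly(A) RNA from subcutaneous fat was sequenced in 1 thin-tailed and 1 fat-tailed library after TRIzol extraction, per the labels' protocols. The authors deposited FPKM per locus with a lower and an upper bound, in the layout of a Cufflinks tracking table, per the file headers. FastQC, TopHat and Cuffdiff are named, without versions, per the submitters' processing notes. The build and any between-library scaling were not given in the sources used here. Starts are counted from 0 in the tables and were raised by 1. Loci were paired by mutual best reciprocal overlap of at least 0.8, and 73 tied pairs were dropped. Implied fragments were computed as (2 × FPKM/(upper bound − FPKM)) squared. Overlap within a table meant at least 1 bp. The pseudocount was 1. Python 3.11.15, numpy 2.4.6 and pandas 2.3.3 were used, and pairing was tested on simulated tables. The members and lists were chosen with earlier results of these data known.

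In each direction the text names by position the 8 highest isolated loci of at least 1000 bp on assembled chromosomes, the 8 highest of at least 1000 bp whose row at 0 overlaps a locus above 0, the 3 highest under 1000 bp, and the 2 on each side of the threshold. Ensembl identifiers are printed for at most 2 per direction, and the tables do not pair them with names. Of the gene lists, only the mitochondrial one could be placed. The cell type markers were not analysed. Sequences are not shown because no genome of the tables' build was used here.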

Additional observations from a re-analysis of the deposited data

How the results depend on the processing

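No paired analysis was possible because there was a single library of each kind and nothing was tested. Loci at 0 in the fat-tail library outnumbered those at 0 in the thin-tail library under all 13 settings compared. The settings reuse largely the same pairs, and some could not turn the order. An upper bound of 0 or a status of OK left 244 and 141 unchanged, and equal FPKM totals could lower only the second count. All compared pairs leaned the same way, with 14.7% 2-fold lower and 8.30% 2-fold higher in the fat-tail library. From 244 and 141, the counts moved to 74 and 47 with a minimum of 5 FPKM, to 1326 and 756 with none, and to 125 and 63 without any overlap. The first became 382 at 0.5 FPKM and 134 with identical ends. The second became 27 with equal FPKM totals, where the summed fat-tail FPKM, 9.15 times larger, was scaled down, and 89 with intervals above 0. The last condition was added after the data were seen, here and below. The fat-tail sum includes the 75 bp locus at 1088760 FPKM on 1 implied fragment, and the depths estimated above differed far less. Equal totals leave the zeros in place and move fat-tail values below the minimum of 1 FPKM, so they are a poor scaling here. The overlapped shares of 40.6% and 45.4% fell to 12.7% and 19.9% at 50% cover and to 9.02% and 16.3% at 80%, and were 52.5% and 58.4% with intervals above 0. The counts still 2-fold apart under the highest covering locus, 225 and 122, fell to 68 and 36 with a pseudocount of 5. They fell to 157 and 88 when loci overlapping by 1 bp or more were counted in place of those at 50% cover. The second fell to 18 with equal totals and 76 with intervals above 0. Median log2 ratios were -4.79 and 4.70 with a pseudocount of 0.1, -0.62 and 0.58 with 5, and -2.04 and 2.08 with intervals above 0; the second was 0.35 with equal totals. For 119 loci the intervals reach 0, and the total depth is unknown.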
